A study of Mus musculus with 3 samples.

Results

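The 9 genes *Mdm2*, *Ccng1*, *Zmat3*, *Phlda3*, *Trp53inp1*, *Eda2r*, *Bax*, *Bbc3* and *Pmaip1* are known targets of the transcription factor p53. They were taken by name from the 28953 genes listed in the single-cell count tables, and each of them had UMIs in all 3 libraries. They were picked because earlier work on these counts had found them higher in cells grown in culture than in cells of the embryo, so that every difference between culture and embryo given here is a description and was not tested. A UMI, a unique molecular identifier, marks 1 captured transcript. Levels are given in CPM: the UMIs of a gene were added up within a cluster and expressed per 1000000 UMIs of all genes in that cluster.

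p53, encoded by *Trp53*, is kept scarce in unstressed cells by MDM2, a ubiquitin ligase that marks it for degradation, and by the related MDM4. When DNA damage, oncogene activity or stress from culture frees p53, it binds DNA as a tetramer and raises the transcription of genes that stop the cell cycle, repair DNA or start apoptosis. *Mdm2* is itself such a target, which closes a negative feedback loop. In embryos, p53 is mostly held in check, and loss of *Mdm2* is lethal unless p53 is lost as well.

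The study set mouse embryonic stem cell (mESC)-derived tendon cells beside the tendon cells of the embryo. The D10 culture is the whole monolayer at day 10. The D6 culture is cells at day 6 that had first formed embryoid bodies and were then directed to paraxial mesoderm (PM). The E14.5 tail is the tail of mouse embryos of that embryonic age. All 3 come from ScxGFP reporter mice, in which GFP reports the tendon transcription factor gene *Scx*. The mESCs had been kept on irradiated embryonic fibroblast feeders, were directed to PM with 500 nM LDN-193189, which blocks BMP receptors, joined by 5 μM CHIR, which activates the WNT pathway, and from D6 received 10 ng/mL TGFβ1, 100 nM of the Hedgehog agonist SAG and 10 ng/mL FGF2. The culture days and agents are those of the study's methods, and the labels name these samples as differentiated tenocytes and paraxial mesoderm, the former with a short code, D4T, that is not explained. The tail was not cultured and received none of these. Dead cells were depleted from all samples before capture. There was 1 library per group and cells of a library are not replicates, so that no test between groups was possible, and every interval is an exact 95% interval that covers counting error only. Culture, age, agents, library and day of preparation cannot be told apart between the D10 culture and the tail.

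There were 7821 D10 cells, 2052 tail cells and 5954 D6 cells. The median depth per cell was 5622 UMIs at D10, 13512 in the tail and 8171 at D6. The libraries shared between 3 and 10 cell barcodes. The authors' cluster codes were used as deposited. D10 cells had been assigned by the authors to the clusters of the tail, so that the same code need not mean the same kind of cell, and D6 codes are separate. Codes were named only where marker lists allowed it: in both the D10 culture and the tail code 1 was tendon-like, code 2 proliferating tendon-like, code 4 fibrocartilage-like and code 11 endothelium-like, whereas code 3 was pluripotent-like in the D10 culture and skin-like in the tail. These names differ in part from those of the study. Code 3 (1088 D10 and 49 tail cells) has the cell numbers the study lists for its cluster 2, which it describes as fibrocartilage. Code 4 (855 and 241 cells) has those of its cluster 3. There were 27 codes with at least 50 cells, 10 in the D10 culture, 11 in the tail and 6 in the D6 culture. The 6 smaller codes, with 47 D10 cells and 87 tail cells, were left out of the ranges.

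The promoters of the genes were searched for the p53 decamer, which is 3 purines, C, 2 bases that are A or T, G and 3 pyrimidines, and which reads the same on both strands. p53 binds 2 such decamers with a spacer of up to 13 bases. RefSeq windows of the build GRCm38.p6, from 250 bases before to 50 bases after an annotated start, were at hand for 6 of the 9 genes, all but *Zmat3*, *Trp53inp1* and *Pmaip1*. An exact decamer lay in the windows of *Ccng1*, *Bax* and *Mdm2*, and in 8.36% of all 32851 windows. The stretches that hold them are shown because they are the exact matches among the members, each as 150 bases on the strand of the gene, from 250 to 101 bases before the start, with the decamers in capitals. None of the stretches overlaps an exon in the GENCODE annotation, and all lie upstream of the gene on its minus strand.
*Ccng1*, chr11:40755387-40755536: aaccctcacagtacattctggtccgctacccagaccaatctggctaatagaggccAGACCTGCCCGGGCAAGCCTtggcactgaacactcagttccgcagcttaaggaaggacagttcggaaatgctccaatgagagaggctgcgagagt
*Bax*, chr7:45466999-45467148: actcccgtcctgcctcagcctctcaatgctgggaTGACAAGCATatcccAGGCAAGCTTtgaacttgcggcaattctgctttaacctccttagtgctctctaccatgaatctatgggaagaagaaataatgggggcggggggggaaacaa
*Mdm2*, chr10:117710859-117711008: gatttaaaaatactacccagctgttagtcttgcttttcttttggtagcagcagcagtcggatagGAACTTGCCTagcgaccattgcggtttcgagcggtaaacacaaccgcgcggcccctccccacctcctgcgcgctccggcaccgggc

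In *Ccng1* the exact decamer directly follows another with 1 mismatch, and only 0.627% of all windows hold a pair with as few mismatches. In *Bax* a decamer with 2 mismatches precedes the exact one by a spacer of 5 bases, and 4.09% of windows hold a pair as good or better. Another decamer with 2 mismatches follows the exact one after a spacer of 1 base. That pair is as good and is not in capitals. The single decamer of *Mdm2* had no such partner: the best pair of that window had 4 mismatches, as few as in 40.4% of windows. The known p53-responsive start of *Mdm2* lies inside the gene and was not in the window. In *Bbc3*, *Phlda3* and *Eda2r* no exact decamer was found, and the best pairs had 3, 5 and 6 mismatches. A match is a string of letters, and binding was not measured.

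Summed over the 9 genes, the level was higher in every D10 and D6 code than in every tail code (plot of the codes in order of level). D10 codes ranged from 1034 CPM in fibrocartilage-like cells to 3726 CPM in code 9, with a median of 1451. D6 codes ranged from 708 CPM in epithelium-like cells to 2048 CPM in code 5. Tail codes ranged from 12.2 CPM in erythroid-like code 12 to 485 CPM (452 to 519) in nerve-like cells, with a median of 359. The lowest culture code, D6 epithelium-like at 708 CPM (695 to 720), thus stood above the highest tail code, and the intervals did not overlap. How many of all genes separate culture from tail codes in this way was not counted. The members were picked for being higher in culture, so that such a separation, here and for single genes below, supports nothing by itself.

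**Figure D1:**
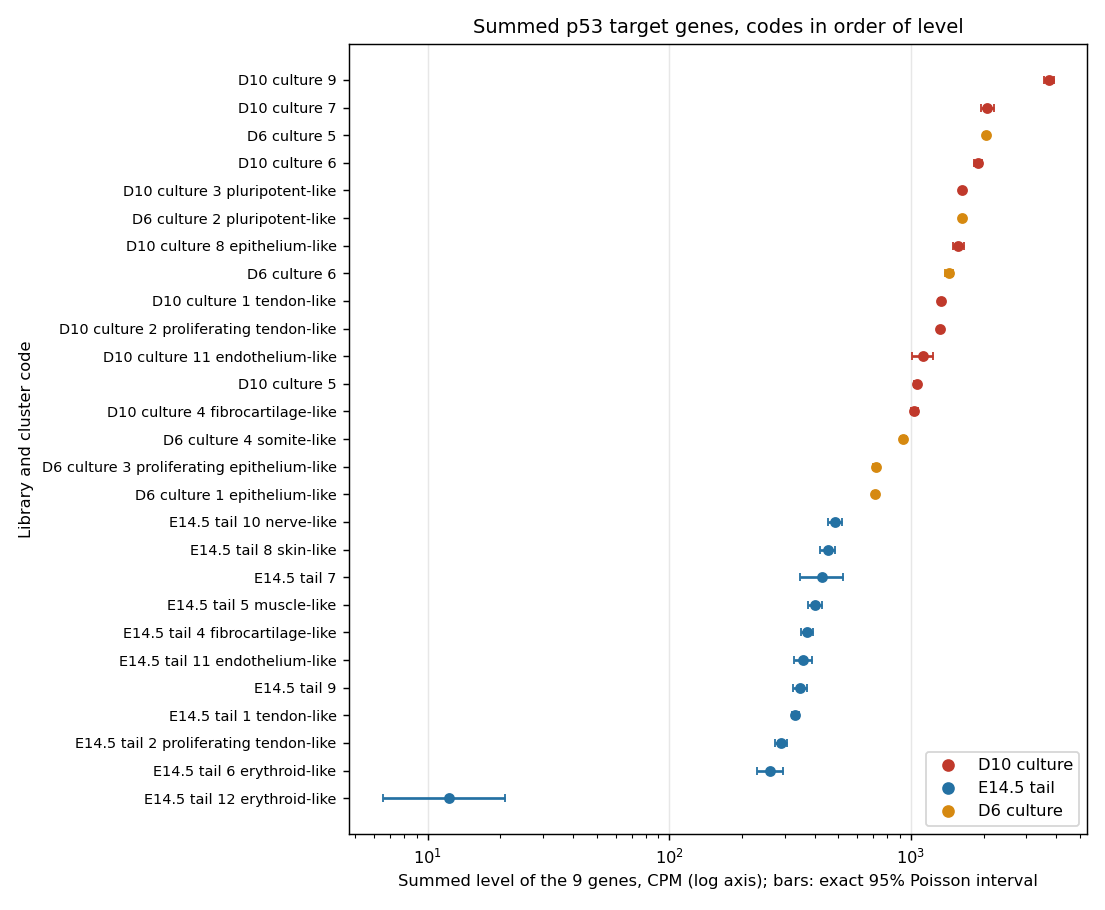
Summed level of the 9 p53 target genes in CPM (x axis, log scale) for each of the 27 cluster codes with at least 50 cells (y axis, in order of level), with the exact 95% Poisson interval as bars and the library as color. The 16 codes of the D10 and D6 cultures sit between 708 and 3726 CPM and the 11 tail codes between 12.2 and 485 CPM.

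The order within the culture did not follow the day. D10 code 9 stood alone at the top (3548 to 3911 CPM), followed by D10 code 7 at 2076 CPM and D6 code 5 at 2048 CPM, whose intervals overlapped. The cells of D10 code 7 were shallow, and only 34 of its 257 cells reached 3000 UMIs. Pluripotent-like cells had 1637 CPM at D10 and 1635 CPM at D6. Tendon-like and proliferating tendon-like cells of the D10 culture were at 1327 and 1326 CPM, and could not be ordered, although proliferation markers summed to 917 and 5930 CPM in them. Among tail codes, the intervals of each code from nerve-like to tendon-like (332 CPM) overlapped that of the next, and the proliferating tendon-like code was lower, at 291 CPM (275 to 308).

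*Mdm2* and *Ccng1* both feed back on p53. *Ccng1* encodes cyclin G1, which brings a phosphatase to MDM2. *Mdm2* was at 58.8 to 998 CPM in D10 codes, with a median of 116, at 67.8 to 464 CPM in D6 codes and at 2.82 to 94.8 CPM in tail codes, with a median of 51.3. The libraries overlapped for *Mdm2*, and 5 of the 10 D10 codes and 3 of the 6 D6 codes lay above the highest tail code, nerve-like cells. *Ccng1* was at 114 to 806 CPM in D10 codes, with a median of 182, at 97.2 to 390 CPM in D6 codes and at 0 to 36.1 CPM in tail codes. Every culture code was above every tail code for *Ccng1*, without a count of how many of all genes do the same. The highest in the tail was code 8, skin-like cells.

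*Zmat3* encodes a zinc finger protein that binds RNA and acts in splicing. It was at 45.5 to 103 CPM in D10 codes and at 39.9 to 81.2 CPM in D6 codes, against 0 to 23.1 CPM in tail codes. The range of *Zmat3* within the D10 culture was narrow, and it did not share the rise of other members in D10 code 9, where it had 70.6 CPM beside a median of 70.9 CPM over the D10 codes.

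*Phlda3*, *Trp53inp1* and *Eda2r* act at the membrane or on p53 itself. *Phlda3* encodes an inhibitor of AKT, and it had 61.1 to 606 CPM in D10 codes, 77.2 to 430 CPM in D6 codes and 0.942 to 109 CPM in tail codes. The highest tail code for *Phlda3* was again skin-like code 8, and nerve-like cells, highest in the tail for the sum, had only 7.11 CPM. *Trp53inp1* encodes a stress protein that promotes p53 activity and autophagy, and it had 33.4 to 225 CPM in D10 codes, 29.2 to 203 CPM in D6 codes and 0 to 35.6 CPM in tail codes. For both genes 9 of the 10 D10 codes were above all tail codes, and the exception was D10 code 5, an unnamed code in which pluripotency, epithelium and muscle markers summed to 1536, 1121 and 558 CPM.

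*Eda2r*, a receptor of the tumor necrosis factor family that binds ectodysplasin A2, was the gene nearest to absence in the tail. It was at 0 UMIs in 6 of the 11 tail codes, and the highest tail code, muscle-like cells, had 0.923 CPM from 2 UMIs. D10 codes had 4.34 to 25.1 CPM and D6 codes 5.76 to 33.2 CPM of *Eda2r*, so that the level of every culture code was above that of every tail code. With so few UMIs the intervals did overlap, that of tail code 7 at 0 UMIs reaching 16.5 CPM.

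*Bax*, *Bbc3* and *Pmaip1* start apoptosis at mitochondria. *Bax* encodes the pore-forming effector, *Bbc3* encodes PUMA and *Pmaip1* encodes NOXA, both of which bind and neutralize the proteins that restrain the effectors. *Bax* had 425 to 871 CPM in D10 codes, 304 to 637 CPM in D6 codes and 8.47 to 279 CPM in tail codes, with no overlap between culture and tail. *Bax* made up 45.2% of the UMIs of the 9 genes in D10 tendon-like cells and 50.9% in tail tendon-like cells, so that it weighs most in the sum.

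*Bbc3* had 40.9 to 131 CPM in D10 codes, 21.5 to 67.0 CPM in D6 codes and 0 to 58.2 CPM in tail codes. The D10 codes overlapped 1 tail code, erythroid-like code 6 at 58.2 CPM, and lay above the next, nerve-like cells at 24.9 CPM, which the lowest D6 code did not. *Pmaip1* had 18.9 to 125 CPM in D10 codes and 18.2 to 163 CPM in D6 codes, and in the tail 0 to 26.9 CPM with a median of 0.986. It was at 0 UMIs in 3 tail codes, fibrocartilage-like, endothelium-like and erythroid-like code 12, and the highest *Pmaip1* level of all codes was in D6 somite-like cells.

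**Figure D2:**
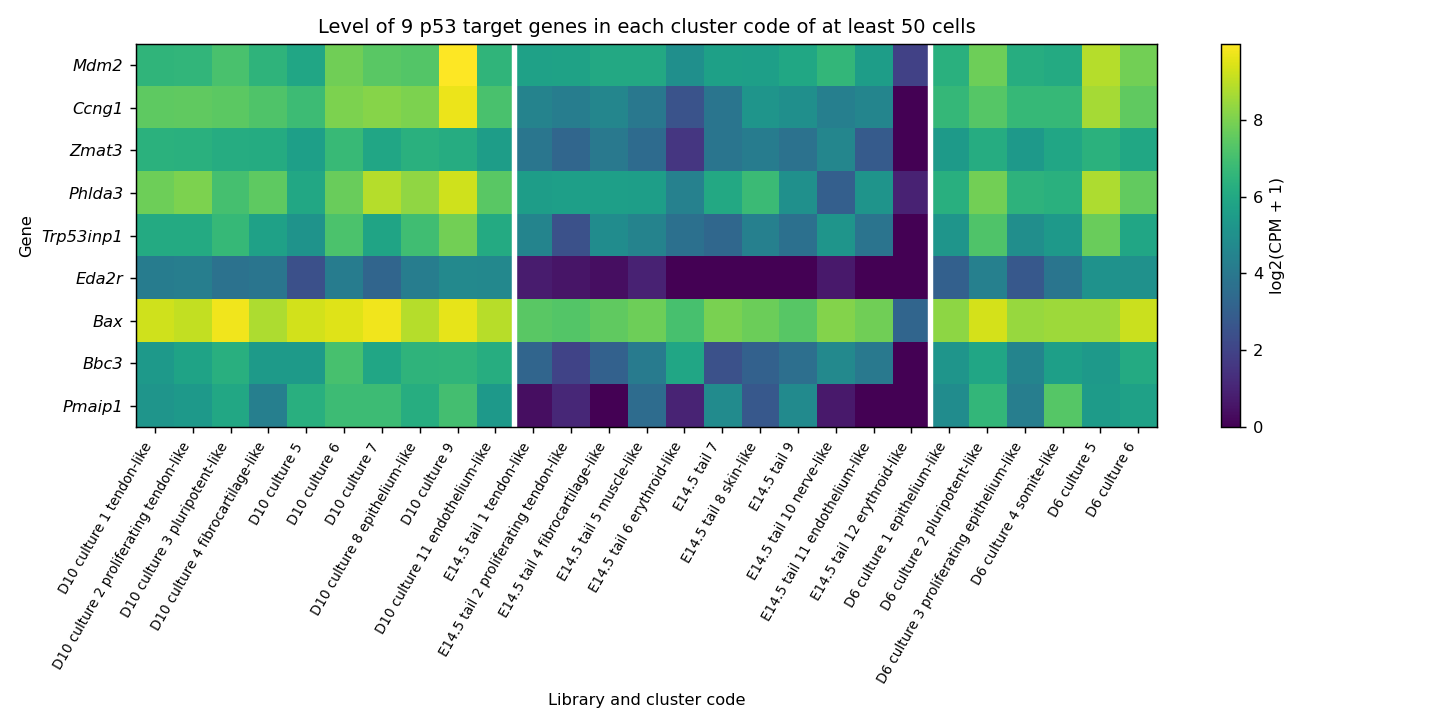
Level of each of the 9 genes (rows) in each cluster code with at least 50 cells (columns, grouped by library) as log2(CPM + 1), shown as color. The tail columns are darker than the culture columns for *Ccng1*, *Zmat3*, *Eda2r* and *Bax* throughout, and D10 code 9 and D6 code 5 stand out for *Mdm2* (998 and 464 CPM) and *Ccng1* (806 and 390 CPM).

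D10 culture and tail were set side by side first in the 3 tendon-lineage codes that bore the same name in both, tendon-like, proliferating tendon-like and fibrocartilage-like. In tendon-like cells (2964 D10 cells, 685 tail cells) the sum was 1327 CPM at D10 and 332 CPM in the tail, 4.0-fold higher (3.85 to 4.14). All 9 genes were higher at D10. A gene passed the filter if 10% or more of the cells had a UMI of it in 1 of the libraries, and of the 8 genes that did so 7 were at least 2-fold higher and 0 were 2-fold lower. A gene that passed only through the D10 cells, as *Pmaip1* did here (13.6% of D10 and 0.438% of tail cells), had to differ, so that these counts support nothing by themselves. Of all 10418 genes that met this filter, 5.76% were at least 2-fold higher and 13.6% at least 2-fold lower, and the median gene was at 0.867 of its tail level (-0.21 on the log2 scale). Relative to the median gene, the sum was 4.61-fold higher.

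The genes of the feedback loop differed from each other in tendon-like cells. *Mdm2* had 91.0 CPM at D10 and 51.3 CPM in the tail, 1.77-fold (1.60 to 1.96), the smallest ratio of the 9. *Ccng1* had 180 and 21.1 CPM, 8.53-fold (7.42 to 9.84).

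*Zmat3* had 80.8 and 13.9 CPM, 5.80-fold (4.87 to 6.95). *Phlda3* had 214 and 45.7 CPM, 4.69-fold (4.25 to 5.18), and *Trp53inp1* had 67.5 and 21.5 CPM, 3.13-fold (2.71 to 3.64). All 3 intervals lay above 2-fold. *Eda2r* had 17.2 CPM at D10 and 0.691 CPM, from 7 UMIs, in the tail, 24.8-fold (11.9 to 62.4), and did not pass the filter.

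Among the apoptosis genes, *Bax* had 599 CPM in D10 tendon-like cells and 169 CPM in the tail, 3.54-fold (3.37 to 3.73). *Bbc3* had 40.9 and 8.49 CPM, 4.82-fold (3.85 to 6.10). *Pmaip1* had 598 UMIs at D10 and 3 in the tail, 122-fold, with an interval from 41.4 to 592 that shows how little the tail count fixes the ratio.

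In proliferating tendon-like cells the sum was 1326 CPM at D10 and 291 CPM in the tail, 4.56-fold higher (4.30 to 4.83), or 5.17-fold relative to the median gene. Of the 9 genes, all of which passed the filter, 8 were at least 2-fold higher and 0 lower, beside 5.5% and 13.6% of 11232 genes. *Pmaip1* (21.1% of D10 and 2.15% of tail cells), *Eda2r* (11.9% and 1.08%), *Bbc3* (28.9% and 5.91%) and *Trp53inp1* (32.8% and 9.68%) passed through the D10 cells alone. *Mdm2* was again the exception, at 93.1 and 52.4 CPM, 1.78-fold (1.54 to 2.06). *Trp53inp1* and *Bbc3* differed more here than in the other tendon-like code: *Trp53inp1* had 68.1 and 4.62 CPM, 14.7-fold (9.47 to 24.3), and *Bbc3* had 53.5 and 3.0 CPM, 17.8-fold (10.3 to 33.7). At D10 *Trp53inp1* was alike in both codes, and its tail level was lower in the proliferating code. *Bbc3* was both higher at D10 and lower in the tail in that code than in tendon-like cells.

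In fibrocartilage-like cells the sum was 1034 CPM at D10 and 371 CPM in the tail, 2.79-fold higher (2.61 to 2.98), or 3.15-fold relative to the median gene. Of the 7 genes that passed the filter 5 were at least 2-fold higher and 0 lower, beside 4.86% and 13% of 9986 genes. *Bbc3* (14.2% of D10 and 8.71% of tail cells) passed through the D10 cells alone. *Trp53inp1* (50.5 and 27.8 CPM, 1.82-fold, 1.40 to 2.37) and *Mdm2* (88.4 and 64.1 CPM, 1.38-fold, 1.15 to 1.65) stayed under 2-fold. *Pmaip1* had 63 UMIs at D10 and 0 in the tail, at least 20.9-fold higher against a floor of 3 counts over the tail cells.

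Other sums moved with the library in these codes. Immediate early genes such as *Fos* and *Jun*, which rise when tissue is dissociated, summed to 1363 CPM at D10 and 4738 CPM in the tail in tendon-like cells. Mitochondrial genes made up 2.01% of the UMIs of D10 tendon-like cells and 3.15% of those of tail tendon-like cells. Erythroid markers summed to 25.6 CPM at D10 and 1953 CPM in the tail in tendon-like cells, and to 5.14 and 8339 CPM in the proliferating code. Proliferation markers summed to 917 and 186 CPM in tendon-like cells. Macrophage markers were near 0 in both libraries, at 5.30 and 6.02 CPM. The part of these in the differences was not tested.

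**Figure D3:**
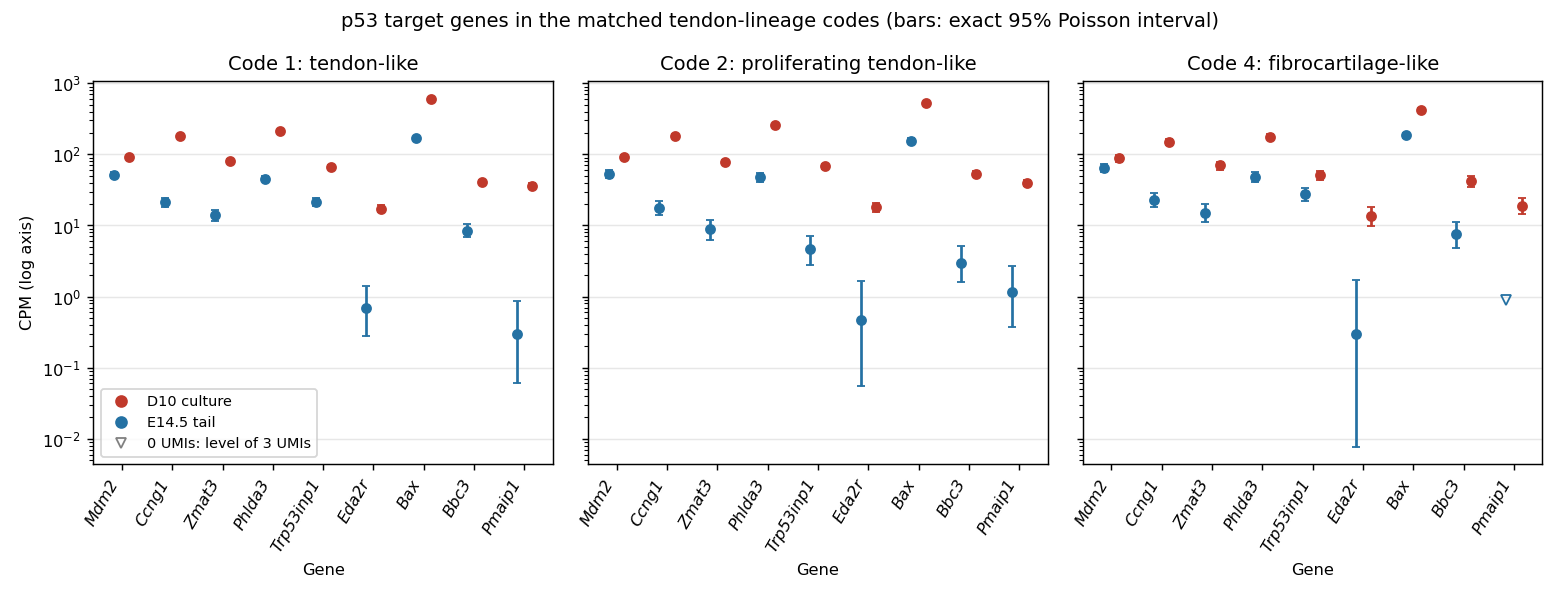
Level of each of the 9 genes in CPM (y axis, log scale) in the tendon-like, proliferating tendon-like and fibrocartilage-like codes of the D10 culture and the E14.5 tail, with exact 95% Poisson intervals as bars and the level of 3 UMIs as an open triangle where no UMI was counted. The D10 point is above the tail point for all genes in the 3 panels, nearest for *Mdm2* in each panel (91.0 against 51.3 CPM in code 1).

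The same comparison was made in the 6 other codes with at least 50 cells in both libraries, of which only code 11 bore the same name in both. The sum was higher at D10 in all 6. It was 2.63-fold higher (2.45 to 2.82) in code 5, 3.12-fold (2.72 to 3.57) in endothelium-like cells, 3.49-fold (3.20 to 3.80) in code 8 and 4.82-fold (3.91 to 6.01) in code 7. It was 10.7-fold higher (9.82 to 11.6) in code 9.

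In code 6 the ratio of 7.27 (6.41 to 8.27) turned on the denominator. The tail cells of code 6 were erythroid-like, with 72.6% of their UMIs from ribosomal protein, mitochondrial and haemoglobin genes, and 83.9% of all genes tested there were at least 2-fold higher at D10, with a median gene at 4.46-fold. With those genes left out of the total the sum was 2.33-fold higher, and relative to the median gene 1.63-fold.

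Of the genes that passed the filter, 5 of 8 were at least 2-fold higher in code 5, beside 13.4% of all genes higher and 20.5% lower. In code 7 it was 5 of 5, beside 7.76% and 11.3%, and 8 of the 9 genes without the filter, beside 8.01% higher. The ninth, *Eda2r*, had 4 UMIs at D10 and 0 in the tail there, too few to call. *Ccng1* (31.5% of D10 and 2.33% of tail cells) and *Pmaip1* (14.8% and 5.81%) passed through the D10 cells alone in code 7. In code 8, 8 of 8 were at least 2-fold higher (14% and 17.1%), in code 9 9 of 9 (12.4% and 28.5%) and in endothelium-like cells 8 of 9 (13.9% and 15.5%). In code 6 it was 8 of 8 beside 83.9% and 2.24%, and 5 of 8 beside 18.2% higher relative to the median gene. Other genes also passed through the D10 cells alone and had to differ, so that these counts support nothing by themselves. These were *Pmaip1* in code 8 (31.6% of D10 and 8.54% of tail cells) and *Eda2r* in code 9 (17.0% and 0%). In endothelium-like cells they were *Eda2r* (12.1% and 0%) and *Pmaip1* (20.7% and 0%). In code 6 they were *Ccng1* (43.9% and 7.04%), *Zmat3* (26.2% and 2.82%) and *Pmaip1* (22.5% and 1.41%). None of the 9 genes was 2-fold lower in any of the 9 codes compared. *Ccng1* and *Bax* were at least 2-fold higher in all 9 codes, and *Mdm2* in 4 of 9. These tallies include code 6, where, relative to the median gene, *Bax* was at 1.19, *Mdm2* at 1.63 and *Bbc3* turned to 0.506. They also include the calls of *Ccng1* in codes 6 and 7, where it passed through the D10 cells alone and had to differ. *Mdm2* was slightly lower in code 5, with 58.8 CPM at D10 and 63.2 CPM in the tail, 0.93-fold (0.764 to 1.14).

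The transcript of p53 itself differed less between D10 culture and tail than most of the 9 genes did. Those genes had been picked for being higher in culture and *Trp53* had not, so that this contrast supports nothing by itself. *Trp53* was at least 2-fold higher in 1 of the 9 codes, code 6, at 6.54-fold (4.62 to 9.53), where the median gene was at 4.46-fold. *Trp53* had 105 to 287 CPM in D10 codes, 76.1 to 330 CPM in D6 codes and 0.942 to 231 CPM in tail codes. In tendon-like cells *Trp53* had 151 CPM at D10 and 99.7 CPM in the tail, 1.52-fold (1.41 to 1.63), and *Mdm4* had 66.4 and 82.9 CPM, 0.802-fold (0.732 to 0.878). In code 8 *Trp53* was lower at D10, 118 against 231 CPM, 0.511-fold (0.413 to 0.627), where the sum of the 9 genes was higher. Over the codes, Pearson's r of *Trp53* with the summed members was 0.75 for all 27, 0.95 within the tail, -0.36 within the D10 culture and 0.11 within the D6 culture, and 0.15 for the 25 codes without the erythroid-like tail codes, as a description over codes that share libraries. p53 is controlled mainly as a protein, which was not measured here.

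Between D6 and D10 the sum was 1.42-fold higher along the tendon path and did not differ in pluripotent-like cells. The tendon path stands here for D6 somite-like and D10 tendon-like cells, whose descent was not traced. D6 somite-like cells (700 cells), the cells of the D6 culture with the most somite markers, had 932 CPM and D10 tendon-like cells 1327 CPM, 1.42-fold higher (1.38 to 1.47), or 1.60-fold relative to the median gene. Of the 8 genes that passed the filter 1 was at least 2-fold higher, *Phlda3*, and 1 at least 2-fold lower, *Pmaip1*, beside 9.88% and 10.8% of 8934 genes. At 1.5-fold 4 of the 8 were higher, beside 16% of all genes. The members were thus near the background at 2-fold in this pair.

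*Phlda3* had 79.8 CPM in D6 somite-like cells and 214 CPM in D10 tendon-like cells, 2.69-fold higher (2.44 to 2.96). *Ccng1* (102 and 180 CPM), *Bax* (359 and 599 CPM) and *Trp53inp1* (40.3 and 67.5 CPM) were 1.76-, 1.67- and 1.67-fold higher. *Pmaip1* went the other way, from 163 to 36.0 CPM, 0.222-fold (0.200 to 0.246), although NOXA and PUMA have like roles. *Bbc3*, which encodes PUMA, had 47.9 and 40.9 CPM, 0.855-fold (0.744 to 0.984).

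Pluripotent-like cells made up 1038 cells at D6 and 1088 at D10, and the ratio of the sum was 1.0 (0.981 to 1.02). The sum hid members that moved in opposite directions. *Bax* went from 637 to 866 CPM, 1.36-fold (1.32 to 1.40), and *Bbc3* from 59.3 to 77.1 CPM, 1.30-fold (1.18 to 1.44). *Mdm2* went from 217 to 138 CPM, 0.637-fold (0.598 to 0.678), *Phlda3* from 228 to 131 CPM, 0.574-fold (0.539 to 0.611), and *Trp53inp1* from 147 to 102 CPM, 0.696-fold (0.647 to 0.750). None of the 9 genes, all of which passed the filter, was 2-fold apart, beside 4.14% of all genes higher and 3% lower at D10. At 1.5-fold 4 were lower, *Mdm2*, *Phlda3*, *Eda2r* and *Pmaip1*, beside 8.43% of all genes.

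**Figure D4:**
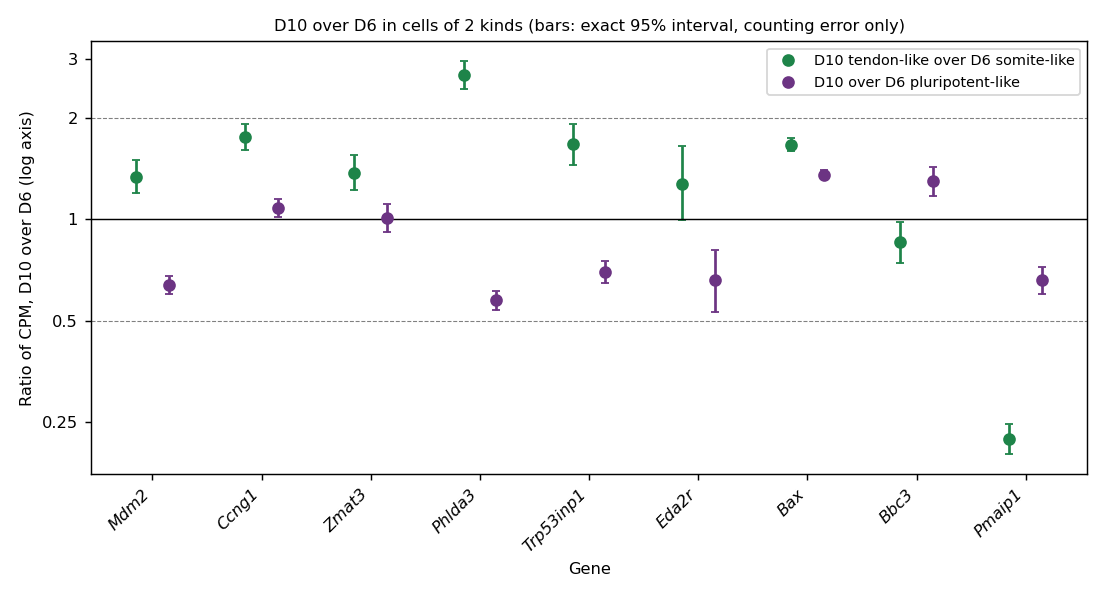
Ratio of CPM at D10 over D6 (y axis, log scale) for each of the 9 genes in tendon-like over somite-like cells (green) and in pluripotent-like cells (purple), with exact 95% intervals as bars, a solid line at 1 and dashed lines at 2-fold. *Phlda3* is at 2.69 in green and 0.574 in purple, and *Pmaip1* is the lowest point in green, at 0.222.

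The highest levels of *Mdm2*, *Ccng1* and *Trp53inp1* were in D10 code 9 (53 cells) and D6 code 5 (662 cells). Both held fibroblast markers, 8 of 8 at 50 CPM or more in D10 code 9 and 7 of 8 in D6 code 5, but macrophage genes were also among their leading genes, so that neither was named. Fibroblast markers summed to 5908 and 7628 CPM in them, to 9403 CPM in D10 tendon-like cells and to 1794 CPM in D6 somite-like cells. Whether irradiated feeder fibroblasts are among these cells was not tested. In D10 code 9 *Mdm2* had 998 CPM, *Ccng1* 806 CPM and *Phlda3* 606 CPM. These are 11-fold (9.84 to 12.2), 4.47-fold (4.0 to 5.0) and 2.83-fold (2.49 to 3.20) the levels of D10 tendon-like cells.

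*Pmaip1*, *Trp53inp1* and *Bbc3* were 3.48-, 3.34- and 2.23-fold higher. The remaining members were nearer to the D10 tendon-like cells. *Bax* was at 779 against 599 CPM, 1.30-fold (1.16 to 1.45), and *Zmat3* at 70.6 against 80.8 CPM, 0.874-fold (0.592 to 1.25). *Mdm2* made up 26.8% of the UMIs of the 9 genes in code 9 and 6.85% in D10 tendon-like cells, whereas *Bax* made up 20.9% and 45.2%. Of the 9 genes 6 were at least 2-fold higher in code 9 and 0 lower, beside 14.9% and 19.9% of all genes. Against D6 code 5 the sum of D10 code 9 was 1.82-fold higher (1.73 to 1.92), and 5 of the 9 genes were at least 2-fold higher, among them *Bax* (2.15-fold, 1.92 to 2.42) and *Pmaip1* (2.89-fold, 2.12 to 3.88), and 0 lower, beside 8.16% and 8.68% of all genes.

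In D6 code 5 *Mdm2* again stood farthest from the cells of the tendon path, here D6 somite-like cells. *Mdm2* had 464 against 67.8 CPM, 6.85-fold (6.18 to 7.62), *Phlda3* 430 against 79.8 CPM, 5.39-fold (4.89 to 5.96), and *Trp53inp1* 203 against 40.3 CPM, 5.03-fold (4.38 to 5.79). *Bax* did not differ beyond counting error, at 361 and 359 CPM, 1.01-fold (0.948 to 1.07), nor did *Bbc3*, 0.861-fold (0.723 to 1.02). *Pmaip1* was lower, 43.4 against 163 CPM, 0.267-fold (0.232 to 0.307). Of the 9 genes 5 were at least 2-fold higher and 1 lower, beside 15.4% and 24.4% of all genes. Among the 5, *Eda2r* (21.3% of D6 code 5 and 9.86% of somite-like cells) passed through D6 code 5 alone, so that its call supports nothing by itself. Against somite-like cells the feedback and signaling genes of D6 code 5 were thus high, and the 3 apoptosis genes were not. *Zmat3* was only 1.39-fold higher (1.21 to 1.60). The split depends on the cells compared, since somite-like cells had the highest *Pmaip1* level of all codes. In D10 code 9, against D10 tendon-like cells, *Pmaip1*, *Bbc3* and *Bax* were 3.48-, 2.23- and 1.30-fold higher.

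Macrophage markers summed to 2262 CPM in D10 code 9, 868 CPM in D6 code 5 and 2663 CPM in tail code 9, and to at most 48.5 CPM in the other codes with at least 50 cells. In cells without a UMI of any of the 8 macrophage markers, an alternative chosen after the data were seen, the sum of the 9 genes was 4037 CPM in D10 code 9 (48 of 53 cells), 2079 CPM in D6 code 5 (541 of 662 cells) and 299 CPM in tail code 9 (113 of 157 cells). Over all cells of these codes the sum was 3726, 2048 and 349 CPM. A cell without a UMI of these markers need not lack their transcripts, and the part of macrophages in these levels was not tested. In tail code 9 *Pmaip1* went from 26.3 to 8.81 CPM when cells with a macrophage marker UMI were left out.

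Pluripotent-like cells stood above the tendon path on the same day for some of the genes. At D6 *Mdm2* (217 against 67.8 CPM), *Trp53inp1* (147 against 40.3 CPM) and *Phlda3* (228 against 79.8 CPM) were 3.20-, 3.64- and 2.86-fold higher than in somite-like cells, and of all genes 15.2% were at least 2-fold higher and 20.1% lower. At D10 no member was 2-fold apart between pluripotent-like and tendon-like cells, beside 23.5% of all genes higher and 19.4% lower, and the sum was 1.23-fold higher (1.21 to 1.26). *Trp53* was at 287 and 151 CPM in this D10 pair, 1.9-fold (1.81 to 2.0).

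In the tail, nerve-like cells had the highest sum, 1.46-fold (1.35 to 1.58) that of tendon-like cells. *Bbc3* was at 24.9 against 8.49 CPM there, 2.93-fold (1.98 to 4.29), and *Phlda3* at 7.11 against 45.7 CPM, 0.156-fold (0.0798 to 0.274). These were the only 2 of the 7 genes that passed the filter with at least 2-fold, 1 in each direction, beside 18.8% of all genes higher and 23.5% lower. *Phlda3* passed through the tendon-like cells alone (44.7%, against 8.03% of nerve-like cells) and had to differ.

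The same UMIs were also counted cell by cell. This is no separate support, since the genes were picked for being higher in culture, and shares of cells over all genes were not counted. To set cells of unlike depth side by side, 3000 UMIs were drawn at random from each and shallower cells were left out, 1157 at D10, 100 in the tail and 1006 at D6. In D10 tendon-like cells 91.8% then had a UMI of at least 1 of the 9 genes, and the median cell had 3 such UMIs (interquartile range 2 to 5). In tail tendon-like cells 62.5% had one, and the median cell had 1 UMI (0 to 2). At least 4 of the 9 genes were seen in 19.7% (18.2% to 21.3%) of D10 tendon-like cells and in 0.295% (0.0357% to 1.06%) of tail tendon-like cells, that is 2 of 678 cells.

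Among D10 codes the share of cells with at least 4 of the genes was lowest in code 5, 7.72% (5.6% to 10.3%), and highest in code 9, 69.4% (51.9% to 83.7%, 36 cells). In D6 code 5 it was 51.9% (47.3% to 56.5%). In tail codes it was at most 1.22% (0.0309% to 6.61%).

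For single genes, *Ccng1* was seen in 33.0% (31.2% to 34.9%) of D10 tendon-like cells and 6.49% (4.75% to 8.61%) of tail tendon-like cells, and in 46.1% and 24.2% before thinning. *Bax* was seen in 77.1% and 38.6% after thinning, but in 82.7% and 86.6% before it, since tail cells were more deeply sequenced. *Pmaip1* was seen in 8.21% of D10 cells and 0 of 678 tail cells, which at this depth allows a share of cells with a UMI of up to 0.543%, and in 13.6% and 0.438% before thinning. Erythroid-like cells of tail code 12 had the lowest shares of the tail: *Bax* was seen in 2.40% (0.498% to 6.85%) and *Ccng1* in 0 of 125 such cells, with a median depth of 8392 UMIs against 13463 in tail tendon-like cells and 4919 in D10 tendon-like cells. There 87.9% of UMIs came from ribosomal protein, mitochondrial and haemoglobin genes, so that few of the 3000 UMIs were left for other genes and these shares are a weak measure of background. No cells that should lack the genes were at hand in the D10 library, and its background was not measured.

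**Figure D5:**
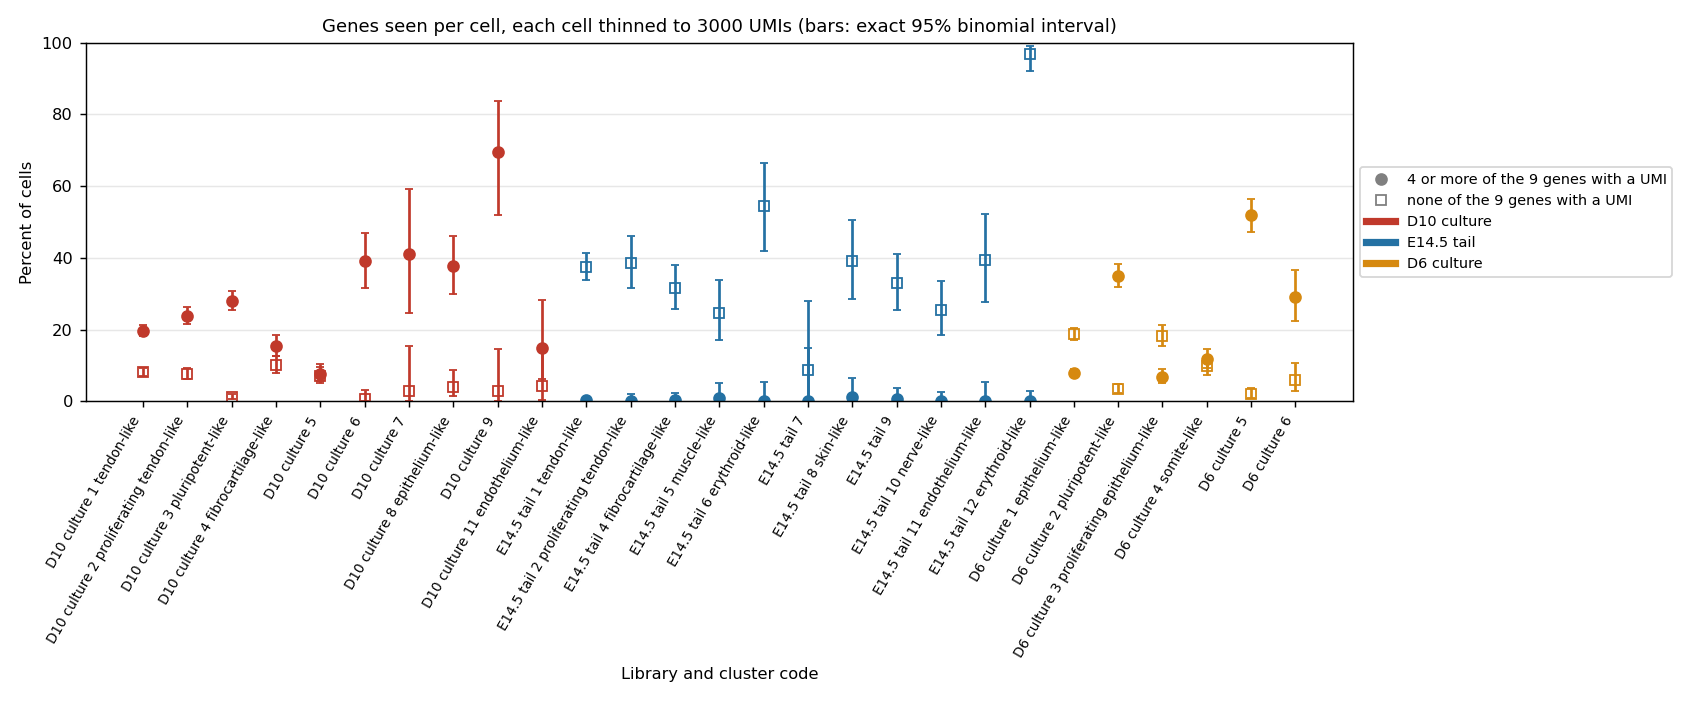
Percent of cells (y axis) in which at least 4 of the 9 genes (filled circles) or none of them (open squares) had a UMI after each cell was thinned to 3000 UMIs, for each cluster code (x axis), with exact 95% binomial intervals as bars. Cells with at least 4 of the genes make up at most 1.22% of any tail code and 7.72% to 69.4% of D10 codes.

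The rest of the p53 pathway was followed through lists of 8 regulators, 36 other targets and 14 partners in apoptosis. In tendon-like cells 10 of the 24 other targets that passed the filter were at least 2-fold higher at D10 and 3 lower, with a median ratio of 1.36 beside 0.867 over all genes. *Cdkn1a*, whose product p21 stops the cell cycle, had 524 CPM at D10 and 2.57 CPM in the tail, 204-fold (139 to 312). It was seen in 60.3% of D10 and 3.65% of tail cells and passed through the D10 cells alone. So did *Dcxr* and *Ak1*, with 38 and 45 UMIs over 685 tail cells. Genes of these lists that passed through 1 group alone had to differ, here and in the comparisons below. Counts of these lists thus support nothing by themselves. *Cdkn1a* was not higher in every code: in code 5 it had 137 CPM at D10 and 245 CPM in the muscle-like cells of the tail, 0.560-fold (0.503 to 0.625). Among 7 regulators 1 was at least 2-fold higher and 0 lower, and among 12 apoptosis partners 1 was higher and 3 lower. Over all genes the shares were 5.76% higher and 13.6% lower, so that counts of 1 in these short lists are near the background. The 1 regulator, *Cdkn2a*, had 1 UMI in the tail and passed through the D10 cells alone.

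Beside *Cdkn1a*, the 8 pathway genes with the largest ratios in tendon-like cells, among those with at least 100 UMIs, came from the regulators and the other targets, and 3 of them, *Gtse1*, *Gdf15* and *Pidd1*, did not pass the filter. *Cdkn2a*, which encodes p16 and the MDM2 inhibitor p19ARF, had 104 CPM at D10, from 1724 UMIs, and 1 UMI in the tail, 1052-fold (189 to 41582). *Gtse1*, whose product restrains p53 in cycling cells, had 151 UMIs at D10 and 2 in the tail, 46.1-fold (12.5 to 384), and *Gdf15*, a stress cytokine, had 155 and 3 UMIs, 31.5-fold (10.6 to 155). The tail counts behind these 3 ratios were thus very low. *Dcxr*, a carbonyl reductase, was 12.3-fold higher (46.2 and 3.75 CPM), *Ckap2*, a spindle protein, 7.59-fold (51.7 and 6.81 CPM) and *Ak1*, adenylate kinase, 5.86-fold (26.0 and 4.44 CPM). *Pidd1*, which encodes a death domain protein, was 6.01-fold higher (11.3 and 1.88 CPM). *Kitl*, the ligand of KIT, went the other way, with 4.88 CPM at D10 and 82.1 CPM in the tail, 0.0595-fold (0.0468 to 0.0748), so that the list did not move as 1 block.

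In proliferating tendon-like cells 10 of 26 other targets were at least 2-fold higher and 2 lower (5.5% and 13.6% of all genes), with a median ratio of 1.70 beside 0.881 over all genes. In fibrocartilage-like cells 6 of 22 were higher and 1 lower (4.86% and 13%), with a median of 1.43 beside 0.884. From D6 somite-like to D10 tendon-like cells 5 of 21 were higher and 2 lower, beside 9.88% and 10.8% of all genes (median 1.42 beside 0.891). In pluripotent-like cells 1 of 32 was higher and 2 lower, beside 4.14% and 3%, which is near the background (median 0.876 beside 1.03). *Cdkn1a* was lower at D10 in that last pair, with 417 CPM at D6 and 189 CPM at D10, 0.453-fold (0.431 to 0.476).

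In D6 code 5, 15 of 28 other targets were at least 2-fold higher than in somite-like cells and 1 lower (15.4% and 24.4% of all genes), with a median ratio of 2.17 beside 0.802 over all genes. In D10 code 9, 12 of 27 were higher than in D10 tendon-like cells and 2 lower (14.9% and 19.9%). *Cdkn2a* had 751 CPM in D6 code 5 and 7.24 CPM in somite-like cells, and 1553 CPM in D10 code 9. *Cdkn1a* had 1693 CPM in D6 code 5 and 2125 CPM in D10 code 9, the 2 highest of all codes with at least 50 cells.

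The genes whose level over the 27 codes was most like that of the summed members, by Pearson's r of log2(CPM + 1) among 12270 genes, were *Ubxn1* (0.93), *Ifrd1*, *Aen*, *Exoc4*, *Hpcal1*, *Rps27l*, *Pkm*, *Slc25a1*, *Atp6v1e1* and *Fbxw9* (0.90). This is a description over codes that share libraries. *Aen* and *Rps27l* are in the list of other targets. Without the 2 erythroid-like tail codes, an alternative chosen after the data were seen, 1 of the 10 genes, *Ubxn1*, remained among the 10 most alike, and *Cdkn2a*, *Dcxr*, *Cdkn1a* and *Sesn2* of the pathway lists were then among them. Within the codes of a single library 0 of the 10 remained, for each of the 3 libraries.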

How the data were processed

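Counts of single cells from D10 culture, D6 culture and E14.5 tail were analysed, with 1 library per group. The deposited tables give a raw count of UMIs for every gene in every cell, from 10x 3′ v3 libraries processed with Cell Ranger and Seurat 3.0, with multi-mapping reads ignored and cells of high mitochondrial share or extreme depth removed. The highest mitochondrial share left was 7.50%. The genome build of the counts is not given in the sources used here, and genes are given by symbol. The members, the pathway lists and the marker lists were chosen with earlier results of these data known.

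Totals were 53403944 UMIs at D10, 31343741 in the tail and 51858825 at D6. UMIs were summed per cluster code and divided by all UMIs of the code. Intervals are exact (95%): Poisson for levels, conditional binomial for ratios and Clopper-Pearson for shares. Reads were collapsed to UMIs, and intervals cover counting error only. A gene was compared if at least 10% of the cells of either group had a UMI, and counted if it differed at least 2-fold. Ratios against 0 UMIs used a floor of 3 counts over the group. Scrublet called 1.48%, 0.439% and 1.36% of cells as doublets at D10, in the tail and at D6. Doublets were kept, the authors having removed the deepest cells, and leaving them out was an alternative. The genes named are the 9 members, *Trp53*, *Mdm4* and *Cdkn1a*, up to 8 pathway genes with at least 100 UMIs and the largest ratio in tendon-like cells, and the 10 genes most alike. Genes named from the pathway lists for other comparisons were chosen after their values were seen. Alternatives varied the cells counted, the denominator, the thinning depth, the fold and the filter. Ratios and intervals were tested on simulated data. Python 3.11.15, NumPy 2.4.6, SciPy 1.17.1, Scanpy 1.11.5 and Matplotlib 3.10.9 were used, with a random seed of 1.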

Additional observations from a re-analysis of the deposited data

Results flagged for a closer look

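For 4 of the 9 genes the ratio of D10 over D6 lay on opposite sides of 1 in the cells of the tendon path and in pluripotent-like cells, with both counting intervals clear of 1. *Mdm2* was 1.34-fold in D10 tendon-like over D6 somite-like cells and 0.637-fold in pluripotent-like cells. *Phlda3* was 2.69-fold and 0.574-fold, and *Trp53inp1* 1.67-fold and 0.696-fold. *Bbc3* went the other way, 0.855-fold and 1.30-fold. The difference between the pairs was not tested, since each day has 1 library.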

How the results depend on the processing

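No paired analysis was possible because there is 1 library per group. Of 67 recomputed ratios of the summed genes 44 stayed within the counting interval and 23 moved beyond it, and of 176 recomputed counts of genes 171 stayed within 1.5 times. Of 865 recomputed values of single genes 743 stayed, 120 moved and 2 were reversed. The 67 ratios leave out the comparisons of codes within a library and of D10 code 9 with D6 code 5. Among these, D6 code 5 over somite-like cells ranged from 2.15 to 2.74, and tail nerve-like over tendon-like cells from 1.405 to 1.48. Relative to the median gene, the sum of culture over tail was 4.61 in code 1, 5.17 in code 2, 3.15 in code 4, 1.63 in code 6 and 14.1 in code 9, D10 tendon-like over D6 somite-like cells 1.60 and pluripotent-like cells 0.975. Thinned to 3000 UMIs per cell, it was 3.79 in code 1, 4.25 in code 2, 2.36 in code 5, 8.72 in code 6, 3.85 in code 8, 8.73 in code 9 and 1.35 for D10 tendon-like over D6 somite-like cells. As the mean CPM of single cells, it was 3.60 in code 1, 2.44 in code 5, 9.35 in code 9, 1.30 for the tendon path and 0.957 for pluripotent-like cells. Without ribosomal protein, mitochondrial and haemoglobin genes in the total, it was 2.33 in code 6, 1.38 for the tendon path and 0.979 for pluripotent-like cells. Without cells with a macrophage marker UMI, it was 13.5 in code 9.

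Genes at least 2-fold higher numbered 5 in code 6 relative to the median gene, where 8 had been counted, and 8 in code 7 without a filter, where 5 had been. At 1.5-fold 4 genes were higher along the tendon path and 4 lower in pluripotent-like cells, and after thinning 1 was 2-fold lower in the latter. *Bbc3* in code 6, 2.26-fold higher as reported, was at 0.722 without the ribosomal protein, mitochondrial and haemoglobin genes and at 0.506 relative to the median gene. Only the scaling differs between these settings. Ratios of the sum stayed above 1 in each of the 9 codes and along the tendon path, and those of pluripotent-like cells lay near 1. Ratios of *Eda2r* and *Pmaip1* are imprecise, with 3 or fewer UMIs in several tail codes.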
